A study of Bos taurus with 8 samples.

Results

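The genes described here are markers of B cells, measured in blood polymorphonuclear leukocytes (PMNL, mostly neutrophils) of Holstein cows. They were chosen by gene symbol: BLK, CD79A, CD79B, FCER2, FCRLA and MS4A1. No feature carried the symbol CD79B in the annotation used here, so CD79B was not analysed here. The other 5 genes of the 6 had 7 features with a value on at least 6 of the 8 arrays, out of 8 features in all. FCER2's other feature had a value on 1 array and was left out by the same rule. Features of 1 symbol were averaged. The 5 genes are 5 of 15700 rows tested, of which 9781 carry a symbol, and each of the 5 had a value on all 8 arrays.

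The RNA came from 8 cows, with 4 in diet M and 4 in diet S, each sampled at day +7 and day -14 relative to calving. During 45 days before calving the cows ate either a straw-rich diet of 1.34 Mcal/kg, which met 100% of their calculated energy need or more, or a diet based on corn silage of 1.62 Mcal/kg, which gave over 140%. Whether M or S stands for the straw diet is not in the labels. After calving all cows received the same lactation diet, the labels name no other treatment, and the blood came from tail vessels. PMNL were prepared by centrifugation, lysis and washing. Each of the 16 RNA samples was hybridised once, on 8 arrays of 2 colours, with 2 arrays and exchanged dyes for each pairing. In diet M the arrays that pair the days held both days of 1 cow; in diet S they held different cows. The dye on top of the deposited log2 ratios is not stated, so Cy5 over Cy3 was assumed for all 8 arrays. Positive then means higher in diet M, or higher at day +7. Were it Cy3 over Cy5, all signs would be turned and sizes would be the same; were the arrays mixed, sizes and tests would differ as well.

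B cells are lymphocytes that make antibodies, and they belong to the mononuclear cells, which a preparation of granulocytes is meant to leave behind. CD79A and CD79B are the signalling chains of the B cell receptor. MS4A1 is the surface protein CD20, and BLK is a Src family kinase acting downstream of the receptor. FCER2 is CD23, the low-affinity receptor for IgE, and FCRLA is an Fc receptor-like protein kept inside the cell; these roles are known mainly from human and mouse. In a bulk sample, fewer B cells and less RNA per B cell cannot be told apart, and a ratio of 2 samples gives no amount of B cells in either.

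The members differed widely in brightness, which here is the geometric mean of the 2 whole-number intensities recovered from a ratio. It is a lower bound, because ratios were in lowest terms. BLK had a median brightness of 1478, above 91.1% of features. The CD79A features had medians of 1760 and 366.8, above 92.2% and 75.1% of features. MS4A1 had medians of 389.1 and 319.1, and FCRLA had 117.1, against 87.32 for the median feature. FCER2 was dim: its feature had a median brightness of 10.12, above 11.9% of features, and its whole numbers ran from 1 to 25. A change of a few units moves such a ratio strongly, and FCER2 is given apart from the 4 brighter members for this reason.

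**Figure D1:**
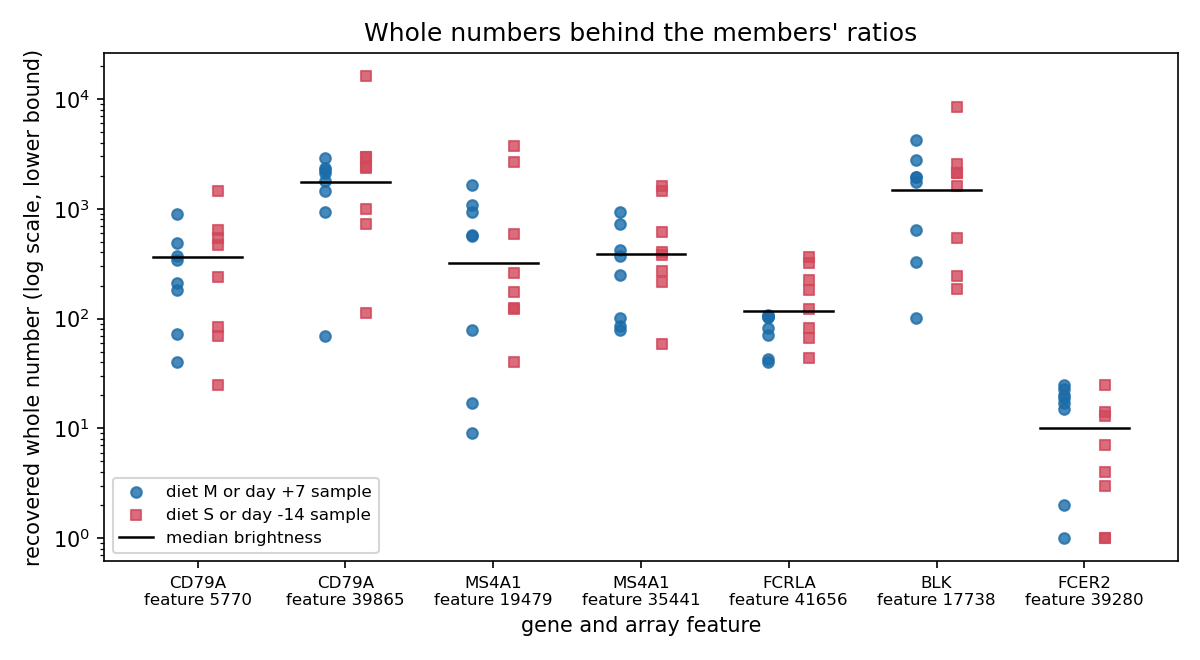
Recovered whole-number intensities (log axis) of the 7 features of the B cell marker genes. Circles are the diet M or day +7 sample of each array, squares the diet S or day -14 sample, and lines the median brightness. FCER2 lies between 1 and 25, while BLK reaches 8487 and the brighter CD79A feature 16171.

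For the diets at day +7, the 2 direct arrays lay on opposite sides for the 4 brighter members. With cow 7979 (M) against cow 7944 (S), log2 ratios were 1.74 for CD79A, 1.59 for BLK, 0.59 for FCRLA and 0.57 for MS4A1. With cow 7977 (M) against cow 8041 (S) they were -2.82, -2.44, -3.06 and -3.73 for the same genes in that order. FCER2 was positive on both, at 2.80 and 1.17. Thus 1 of 5 members was positive on both arrays, against 26.9% of all rows, and none was negative on both, against 28.2% of all rows. The second array placed the 4 brighter members in the lowest 0.466 to 2.53% of its rows, on the widest array of the series (SD over rows 1.52, against 0.734 to 1.05 on the other arrays).

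The whole numbers show the same difference before any correction. For cows 7977 (M) and 8041 (S), the brighter CD79A feature read 2377 in the M sample and 16171 in the S sample, and its other feature 210 and 1459. The MS4A1 features read 102 and 9 in the M sample, against 1463 and 122 in the S sample. FCRLA read 40 in M and 363 in S, and BLK 329 in M and 1628 in S. All 6 features of the 4 genes thus gave a larger number for cow 8041 on the Cy5 over Cy3 reading. FCER2 read 2 in M and 1 in S there. On the other array FCER2 read 20 in the M sample and 3 in the S sample. All these whole numbers are in lowest terms, so the intensities behind each pair could be any multiple of them.

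**Figure D2:**
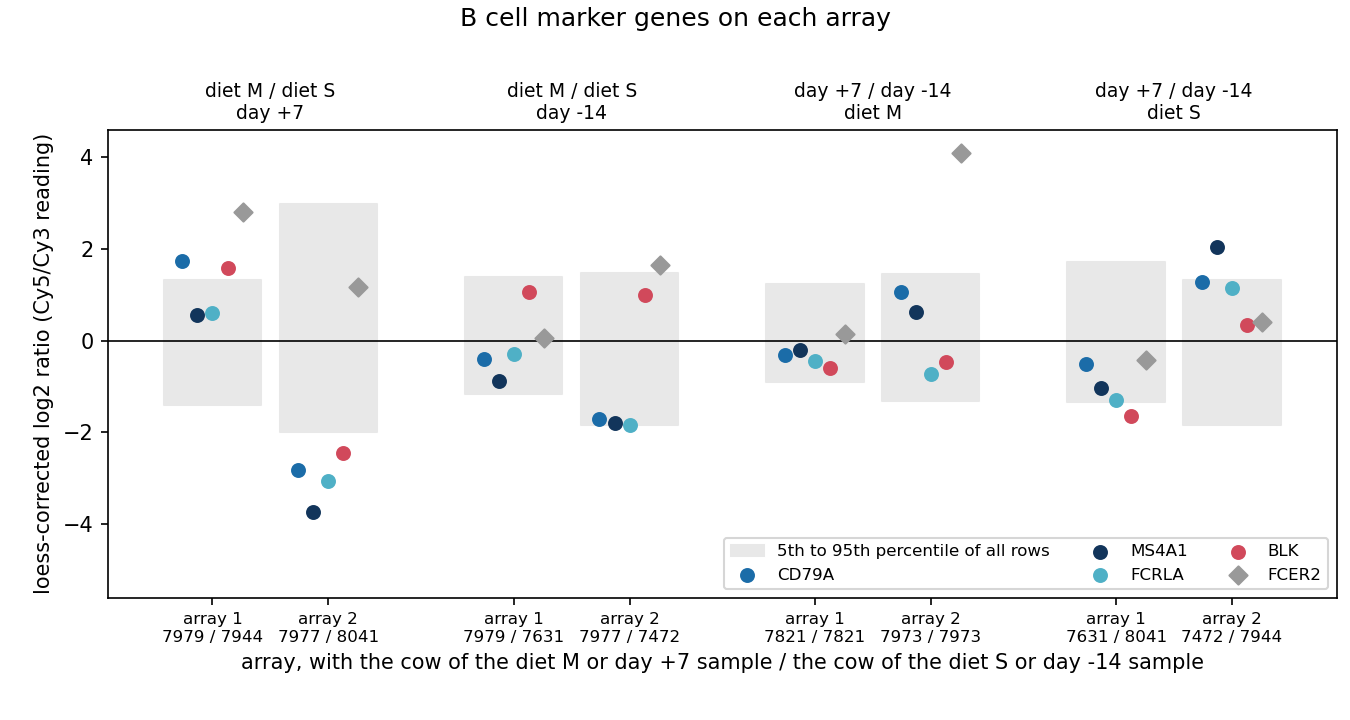
Loess-corrected log2 ratios (vertical axis) of the 5 measured B cell marker genes on the 8 arrays, by pairing, with the cows named as sample on top over sample below. Grey bars span the 5th to the 95th percentile of all rows. On the array of cows 7977 and 8041 the 4 brighter genes lie between -3.73 and -2.44, below the bar, and on the array of cows 7979 and 7944 between 0.57 and 1.74.

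In the fit over all 8 arrays, no member passed the test for the diets at day +7, where the share of all rows called was 0%. MS4A1 was at -1.59 ± 0.70 (SE; limma, adjusted p = 0.228; 95% interval -3.25 to 0.068). FCRLA was at -1.32 ± 0.73 (limma, adjusted p = 0.303), CD79A at -0.67 ± 0.73 (limma, adjusted p = 0.585) and BLK at -0.03 ± 0.65 (limma, adjusted p = 0.979). FCER2 was at 2.24 ± 0.48 (limma, adjusted p = 0.127). It was the only member below 0.05 before adjustment, as were 23.1% of all rows. The members' median was -0.67, with 4 of 5 estimates negative, against a median of 0.01 and 49.6% negative over all rows. Without both arrays of cow 8041 the median was 0.35, with BLK at 1.05 and CD79A at 0.35, while FCRLA and MS4A1 stayed negative at -0.56 and -0.82. BLK, close to 0, also turned positive in fits that kept both arrays of that cow, and without the array of cows 7979 and 7944 the median was -1.88.

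At day -14 the diets were compared by the arrays of cow 7979 (M) against 7631 (S) and of cow 7977 (M) against 7472 (S). CD79A, FCRLA and MS4A1 were negative on both, at -0.39, -0.29 and -0.88 on the first and -1.70, -1.84 and -1.79 on the second. BLK, although a kinase of the same receptor pathway, was positive on both, at 1.05 and 0.99. FCER2 was at 0.05 and 1.66. The 3 members negative on both arrays and the 2 positive on both stand beside 32.6% and 29.4% of all rows.

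The fit for day -14 gave MS4A1 at -1.32 ± 0.70, FCRLA at -0.98 ± 0.73, CD79A at -0.92 ± 0.73, BLK at 0.63 ± 0.65 and FCER2 at 0.61 ± 0.48. None passed the test (limma, adjusted p of 0.736 to 0.784), and 0% of all rows did. No member was below 0.05 before adjustment, against 5.95% of all rows. The widest interval, that of CD79A, ran from -2.64 to 0.81, so 8 arrays did not settle its direction. Without the array of cows 7977 and 7472, CD79A was at 0.27, FCRLA at 0.067 and MS4A1 at -0.29, and without the array of cows 7979 and 7631 BLK was at -0.26.

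The change with calving within a cow was seen on the 2 arrays of diet M. In cow 7821 the 4 brighter members lay close together, with BLK at -0.59, FCRLA at -0.44, CD79A at -0.32 and MS4A1 at -0.20. In cow 7973 they divided: CD79A was at 1.06 and MS4A1 at 0.61, FCRLA at -0.72 and BLK at -0.46. The brighter members lay inside the 5th to 95th percentile of all rows on both arrays (-0.90 to 1.24 and -1.32 to 1.46), as they did on both arrays that pair the diets at day -14 (-1.17 to 1.38 and -1.84 to 1.48). FCER2 was at 0.15 in cow 7821 and 4.10 in cow 7973. That largest value of any member came from whole numbers of 25 at day +7 and 4 at day -14, a ratio of 2.64 as deposited, which the brightness correction raised.

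BLK and FCRLA were negative on both arrays of diet M, against 24.6% of all rows, and FCER2 was positive on both, against 23.1%. The fit gave FCER2 at 1.87 ± 0.48, BLK at -0.92 ± 0.65, CD79A at 0.50 ± 0.73, FCRLA at -0.50 ± 0.73 and MS4A1 at 0.22 ± 0.70. All 5 had an adjusted p of 0.999 in limma, and 0% of rows were called. FCER2 was below 0.05 before adjustment, as were 3.17% of rows. Without the array of cow 7973, FCER2 was at 0.96 and FCRLA at 0.074, and without that of cow 7821 MS4A1 was at -0.15.

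In diet S each day array set different cows side by side. With cow 7631 at day +7 and cow 8041 at day -14, all 5 members were negative: BLK at -1.65, FCRLA at -1.30, MS4A1 at -1.03, CD79A at -0.50 and FCER2 at -0.42. With cow 7472 at day +7 and cow 7944 at day -14, all 5 were positive: MS4A1 at 2.03, CD79A at 1.28, FCRLA at 1.16, FCER2 at 0.41 and BLK at 0.34. No member kept its sign, against 18.9% of rows positive and 24.2% negative on both arrays. The fitted differences were small, from -0.26 ± 0.65 for BLK to 0.49 ± 0.70 for MS4A1 (limma, adjusted p = 0.999 for each), with 0% of rows called. No member was below 0.05 before adjustment, against 4.82% of rows. Days and cows cannot be told apart on these arrays.

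The interaction, day +7 minus day -14 in diet M less the same in diet S, ran from -0.66 ± 0.75 for BLK to 1.63 ± 0.56 for FCER2. FCER2 was below 0.05 before adjustment, as were 6.43% of rows, and had an adjusted p of 0.735 in limma, with a 95% interval of 0.31 to 2.95. The other 4 had adjusted p-values of 0.88 to 0.969 in limma, and 0% of all rows were called.

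**Figure D3:**
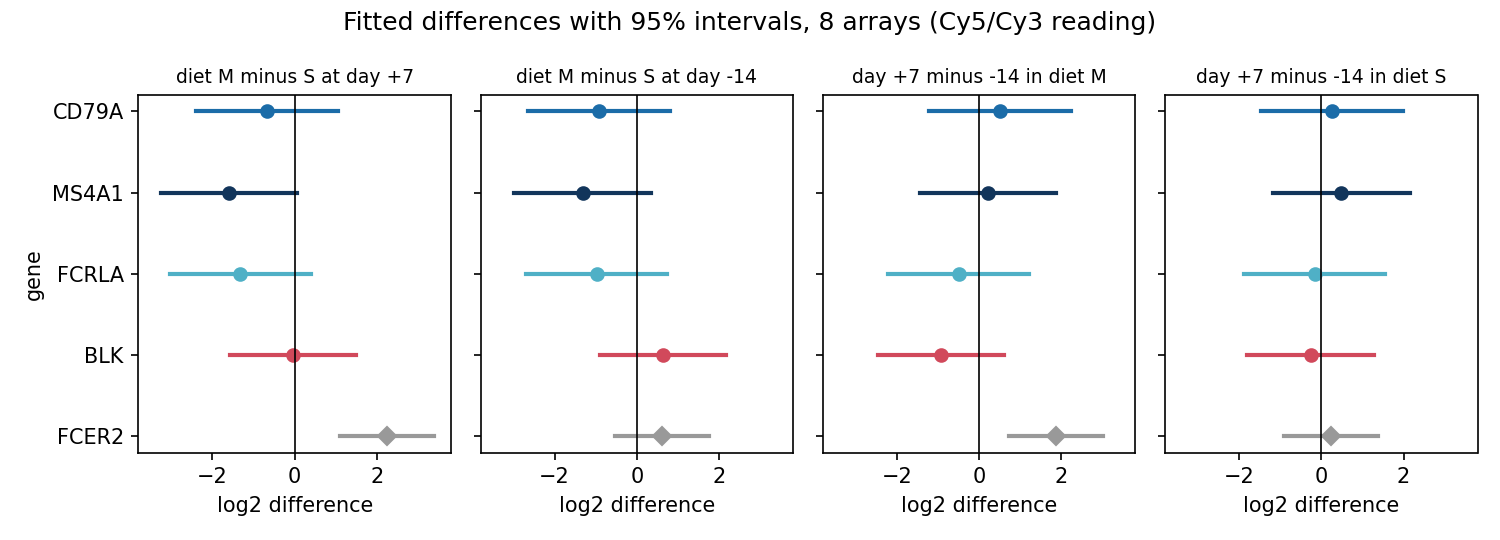
Fitted log2 differences (horizontal axes) of the 5 B cell marker genes with 95% intervals from the loop model over 8 arrays, with 1 panel for each comparison of 2 groups; the interaction is not plotted. The intervals of FCER2 for the diets at day +7 and for the days in diet M lie clear of 0; neither has an adjusted p under 0.05.

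Read by cow, the 4 brighter members moved to the same side on both arrays of 2 cows. Both arrays with cow 8041 as the sample below had a negative median for these 4 genes, -2.94 at day +7 and -1.16 at day -14. Both arrays with cow 7944 below had a positive one, 1.09 at day +7 and 1.22 at day -14. All 4 genes were on the same side on each of these 4 arrays. On the reading used here the 4 genes were therefore high in cow 8041 and low in cow 7944 relative to their partners, at either day, while both cows received diet S. CD79A, FCRLA and MS4A1 also kept their side in cows 7977 (M) and 7472 (S), where BLK changed side. They were lower in cow 7977 than in cow 7472, at -1.70, -1.84 and -1.79, and than in cow 8041, at -2.82, -3.06 and -3.73. They were higher in cow 7472 than in cow 7944, at 1.28, 1.16 and 2.03. These values were compared after they were seen and have no test.

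Dye moved with the pattern of cows 8041 and 7944. Cow 8041 was labelled with Cy3 on both its arrays and cow 7944 with Cy5 on both. Cows 7977 and 7472 changed dye between their arrays. Read as Cy5 over Cy3, CD79A and MS4A1 were negative on 7 of 8 arrays, a count that 4.67% of the 13150 rows with 8 values reached. BLK and FCRLA were negative on 6 arrays, which 15.7% of those rows reached, and FCER2 on 5, which 37.2% reached. The dye terms of the fit were -0.54 to -1.0 over the 5 members, with 1.02 to 4.86% of rows lower and a median of 0.03 over all rows (limma, adjusted p of 0.467 to 0.655). The part of dye in the values of cows 8041 and 7944 was not tested.

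CD79A, FCRLA and MS4A1 had the most similar patterns. The uncentred correlation of their log2 ratios over 8 arrays, which share cows and dyes, was 0.93 for CD79A with MS4A1, 0.93 for FCRLA with MS4A1 and 0.85 for CD79A with FCRLA. CD79A and MS4A1 had the same sign on 8 of 8 arrays. BLK was less like them, at 0.52 to 0.61, and differed in sign on both arrays that pair the diets at day -14. FCER2 was at -0.31 to 0.17 with the others. The 2 features of CD79A had the same sign on 8 of 8 arrays, with a median gap of 0.25 and a largest gap of 1.75 on the array of cow 7973. Those of MS4A1 had the same sign on 7 of 8, with a median gap of 0.47 and a largest of 1.19 on the array of cow 7821.

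Other genes of the B cell surface had rows for 12 of 16 listed, and the others, CD22 among them, are not analysed here. On the array of cows 7977 and 8041, 12 of 12 were negative, with a median of -1.46. With cows 7977 and 7472, 10 of 10 with a value were negative, with a median of -1.01. All rows were negative in 7082 of 14605 on the former array and in 7955 of 14991 on the latter. The other array of each pair was less uniform: with cows 7979 and 7944 at day +7, 9 of 12 were positive (median 0.10), and with cows 7979 and 7631 at day -14, 8 of 12 were negative (median -0.32). Over all rows, 7249 of 15499 were positive with cows 7979 and 7944, and 7741 of 15511 were negative with cows 7979 and 7631. The direct arrays at day +7 thus disagreed for most of this list, but less fully than for the 4 brighter members. Of the surface genes, 3 were negative on both arrays. In the fit, 11 of 12 were negative for the diets at day +7 (median -0.78) and 12 of 12 at day -14 (median -0.61), where 49.6% and 51.8% of all rows were negative. None passed the test. At both days the direct diet arrays held the same diet M cows, 7979 and 7977, and each estimate drew on all 8 arrays. The estimates of the 2 days are therefore not independent, for this list or for any other gene. TNFRSF13C, the receptor for the B cell survival factor BAFF, was at -1.01 ± 0.52 at day +7 and -0.95 ± 0.52 at day -14. CD72, an inhibitory co-receptor, was at -0.82 ± 0.40 and -0.86 ± 0.40 in the same order. CD40, the receptor for T cell help, was at -0.75 ± 0.42 and -0.61 ± 0.42, CR2, a complement receptor, at -1.18 ± 0.56 and -0.13 ± 0.71, and the follicle homing receptor CXCR5 at -0.51 ± 0.46 and -0.13 ± 0.46. CR2 was dim (brightness 38.5) and had a value on 7 arrays, so its fit dropped the array of cows 7977 and 7472.

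Of the genes of B cell receptor signalling, BLNK, the adaptor that links the receptor to its kinases, was at -1.56 ± 0.59 at day +7 and -1.42 ± 0.59 at day -14 (limma, adjusted p = 0.188 and 0.736). The scaffold BANK1 was at -1.40 ± 0.79 and -1.04 ± 0.79, with direct ratios of 0.68 (cows 7979 and 7944) and -4.02 (cows 7977 and 8041) at day +7. BANK1 had a brightness of 54.08, below the median feature. SYK, BTK and LYN are kinases that myeloid cells use as well. SYK was at -0.16 ± 0.35 at day +7, BTK at -0.54 ± 0.28 and LYN at 0.86 ± 0.33, the last with a brightness of 23200. In all, 8 of 12 signalling genes were negative at day +7 and 10 of 12 at day -14, and none passed the test.

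Among B lineage transcription regulators, 8 of 15 were negative at day +7 and 10 of 15 at day -14, with none called. POU2AF1, a co-activator of octamer factors, had the smallest p of the named B lineage genes outside the members. It was at -1.95 ± 0.55 (limma, adjusted p = 0.147) at day +7 and -1.34 ± 0.55 (limma, adjusted p = 0.736) at day -14. A regulator not named here had a smaller adjusted p at day +7 (limma, 0.122). SPIB, an Ets family factor, was at -0.59 ± 0.65 and -1.35 ± 0.65. PAX5, the factor that keeps B cell identity, lay at 0.57 ± 0.45 and -0.11 ± 0.45. Plasma cell genes lay on the other side: 4 of 5 were positive in either diet comparison. JCHAIN, which joins secreted IgM and IgA, was at 1.19 ± 0.76 at day +7 and 1.60 ± 0.76 at day -14, and the secretory regulator XBP1 at 0.55 ± 0.49 and 1.00 ± 0.49. IGHM had no row.

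Markers of other leukocytes moved on the arrays with cow 8041 as well, mostly to the opposite side from the 4 brighter members. On the array of cows 7977 and 8041, 11 of 11 monocyte genes were positive (median 3.0), 11 of 11 neutrophil genes (median 1.74), 4 of 4 eosinophil and basophil genes (median 6.22) and 19 of 20 T and natural killer cell genes (median 1.11). MHC class II genes, which B cells and other antigen-presenting cells express, were negative in 3 of 3 (median -1.06). Only 3 of 10 listed class II genes and 4 of 11 listed eosinophil and basophil genes had a row. Of all rows on that array, 7523 of 14605 were positive. With cows 7631 and 8041, 10 of 11 monocyte genes were positive (median 3.55), 8 of 12 neutrophil genes (median 0.91) and 18 of 22 T and natural killer cell genes (median 1.22), and 3 of 3 class II genes were negative (median -0.68). Of eosinophil and basophil genes, 2 of 4 were positive on that array, with a median of -0.21. All rows there were positive in 7230 of 15523. The array of cows 7977 and 7472 lacked cow 8041 and had 11 of 11 monocyte genes positive (median 0.99). Neutrophil genes were positive there in 12 of 12 (median 0.93) and T and natural killer cell genes in 18 of 21 (median 1.15). Class II genes were negative in 3 of 3 (median -0.91), and 2 of 4 eosinophil and basophil genes were positive (median 0.31). CD79A, FCRLA and MS4A1 were negative there and BLK was positive, and of all rows 7036 of 14991 were positive. The part of these other cell types in the members' ratios was not tested.

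**Figure D4:**
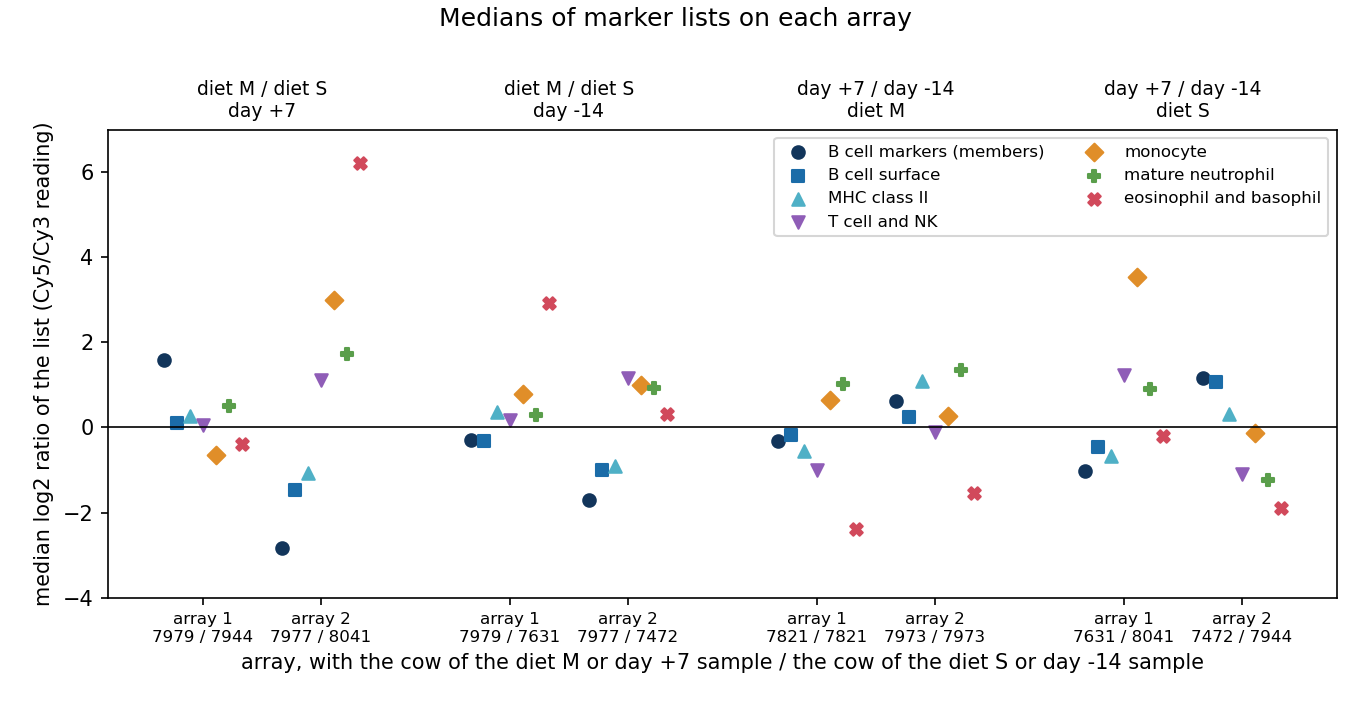
Medians of the log2 ratios (vertical axis) of marker lists on the 8 arrays, by pairing. On the array of cows 7977 and 8041 the B cell markers (-2.82), B cell surface genes (-1.46) and MHC class II genes (-1.06) lie below 0, while the monocyte (3.0), neutrophil (1.74), T and natural killer cell (1.11) and eosinophil and basophil (6.22) lists lie above it.

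The brightest genes of those lists show ratios behind these medians. The calgranulins S100A12 and S100A9, abundant in neutrophils, had brightnesses of 41100 and 13840. Brightness depends on the probe and does not compare the levels of genes. S100A12 and S100A9 lay at 0.84 and 2.01 on the array of cows 7977 and 8041. CSF1R and LYZ of monocytes were at 3.49 and 1.95, ALOX15 and CCR3 of eosinophils at 5.87 and 8.25, and CD3D and CD4 of T cells at 1.22 and 0.29. Platelet genes PF4 and ITGA2B were at 2.88 and 0.87, and the globins HBB and HBA at 5.27 and -0.85. The ratio of CCR3 was the highest of all rows on that array. Brightness was 151.8 for CCR3 and 89.62 for HBB, against 87.32 for the median feature. With cows 7979 and 7944 at day +7, ALOX15 and CCR3 were at -1.74 and -0.76. CD74, the class II invariant chain, was at -1.06 and BOLA-DQB at -0.48. On the array of cows 7472 and 7944, where all 5 members were positive, 21 of 22 T and natural killer cell genes were negative. So were 12 of 12 neutrophil genes, 4 of 4 eosinophil and basophil genes and 7 of 11 monocyte genes (median -0.12). Class II genes were positive there in 2 of 3 (median 0.32), and of all rows 7942 of 15344 were negative. With cows 7979 and 7944, where all 5 members were positive too, 8 of 12 neutrophil genes were positive (median 0.51). T and natural killer cell genes were 11 positive and 11 negative on that array (median 0.05). Of eosinophil and basophil genes 3 of 4 were negative (median -0.40), and of monocyte genes 9 of 11 (median -0.66). Class II genes were positive in 2 of 3 (median 0.27), and of all rows 8250 of 15499 were negative.

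Over 8568 genes with a symbol and values on all 8 arrays, the pattern most like the mean of the members was that of ARL6IP4 (uncentred correlation 0.98 over 8 arrays). This mean took in the dim FCER2, which was at -0.31 to 0.17 with the other members, and no mean without FCER2 was ranked. The ranking is therefore not one by the brighter members alone. Next to ARL6IP4 stood genes of other kinds. RNASEH2A, MIF, HDAC10, USP5, UCKL1, GRAMD1A, SAMD1, TBXA2R and POU2F1 followed, at 0.94 to 0.96. None of these 10 is on a B cell list, and their ratios ran from -2.94 for TBXA2R to 1.22 for MIF. Of named B lineage genes, BANK1 ranked 24 (0.92), SYK 30 (0.91) and TNFRSF13C 122 (0.85). The others ranked lower: CD40 292, BLNK 446, SPIB 634, CD72 1137, PAX5 1354, POU2AF1 1536 and CXCR5 2610. BTK ranked 3832 (0.10), LYN 4014 (0.06) and JCHAIN 6578 (-0.47), and CR2, without a value on every array, had no rank. The most opposite patterns were those of C7H5orf15, DIP2B, PPP6C, PISD and UNC50, at -0.95 to -0.98.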

How the data were processed

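PMNL RNA of 16 samples was measured on 8 Agilent arrays. The deposited values are log2 ratios of 2 channels, which the authors had not normalised, as whole-number intensities could be recovered from 97.8 to 98.5% of them (tolerance 1e-09 on the log2 scale). Scanner and image software were not given in the sources used. A loess of the ratio on each feature's median brightness over the arrays was subtracted within every array (span 0.4, degree 1, 4 iterations). Features with values on at least 6 arrays were averaged by symbol. Symbols came from the platform annotation, updated through RefSeq (assembly ARS-UCD2.0, names only): 30788 of 43803 features had 1 symbol.

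For all 15700 rows, limma 3.58.1 (R 4.3.3) fitted a loop model with a dye term, with two-sided p-values, Benjamini-Hochberg adjustment over all rows and a threshold of 0.05. It left 4 residual degrees of freedom (prior 3), and was tested on simulated data. Errors are moderated SEs over 8 arrays, and p-values cover only the spread among the arrays. The number of arrays limits the precision.

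The members and gene lists were chosen with earlier results of these data known. Genes outside the members were named by rule: fixed B lineage genes with a row, the 2 brightest genes of each other list, and the 10 rows most like and 5 most opposite to the members' mean. Alternatives were other normalisations, filters, feature choices, dye term, array weights, the cow as replicate block, and arrays left out.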

Additional observations from a re-analysis of the deposited data

How the results depend on the processing

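Under 18 alternatives, 445 values of the members were recomputed: 405 kept their direction and their side of the threshold, 40 turned direction and 0 passed the threshold. The smallest adjusted p was 0.0685 in limma, for FCER2 and the diets at day +7 with only features measured on all 8 arrays. Rows called for the diets at day +7 numbered 1 with such features and 325 with features of a median brightness of at least 64, against 0; none was a member, and FCER2 is too dim for the second filter. Fewer rows were tested in both.

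For the diets at day +7, BLK was at 0.12 on the values as deposited, 0.19 with each array centred on its median and 0.0099 with a loess span of 0.7. Without both arrays of cow 8041, BLK was at 1.05 and CD79A at 0.35 at day +7, CD79A at -0.11 and FCER2 at -0.025 for the days in diet S, and MS4A1 at 0.036 for the interaction. On the values as deposited, MS4A1 was at -0.035 for the days in diet M and FCER2 at -0.0098 for those in diet S. The cause was not tested.

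With each array left out in turn, values for the diets at day +7 ran from -0.68 to 1.21 for BLK and -1.88 to 0.34 for CD79A. At day -14 they ran from -0.26 to 1.04 for BLK, -1.91 to 0.27 for CD79A, -1.90 to 0.067 for FCRLA and -2.33 to -0.29 for MS4A1, and from -1.90 to 0.27 for the members' median. For the days in diet M they ran from -0.15 to 0.60 for MS4A1 and -0.94 to 0.074 for FCRLA. For the days in diet S they ran from -0.67 to 0.21 for BLK, -0.078 to 0.66 for CD79A, -0.062 to 0.87 for FCER2 and -0.74 to 0.30 for FCRLA. For the interaction they ran from -1.21 to 0.16 for BLK, -0.56 to 0.92 for CD79A, -1.04 to 0.27 for FCRLA and -0.96 to 0.40 for MS4A1. Called rows were 0 in every such fit. Rows at an unadjusted p under 0.05 ran from 1638 to 3822 for the diets at day +7, against 3625 (1445 without cow 8041), and from 353 to 1469 at day -14, against 934. The lone array left in a pairing was assumed to vary like the others.

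With the cow as replicate block (correlation 0.2), the members' median was 0.21 for the days in diet M, against 0.22, and the block changed no call. The numbers of the arrays within a pairing are names and pair no samples. The small whole numbers of FCER2, which are lower bounds, limit its ratios in particular, and signal over background was not measured.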
